A study of Mus musculus with 8 samples.

Results

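The adhesion genes described here are the integrin subunits, the laminin chains, the hemidesmosome plaque proteins and their basement membrane partners. They were chosen by symbol alone: every integrin α or β gene with a numbered name, Itgav, every laminin α, β or γ chain gene, and Dst, Plec, Cd151, Nid1, Nid2, Hspg2 and Agrn. This gave 39 of the 23597 genes in the table, made up of 13 integrin α genes, 8 integrin β genes, 11 laminin chain genes, 3 genes of the hemidesmosome plaque or its tetraspanin, and 4 genes of other basement membrane linkers. RNA came from mouse corneas on day 14 of scopolamine injection, a muscarinic blockade used to bring on dry eye. One group, ICI, also received ICI 118551, a blocker of the β2-adrenergic receptor, and the other, Scop, had scopolamine dry eye without it. Each group held 4 samples and each sample pooled 4 corneas, so a value is an average over cell layers and animals. Both groups carried the scopolamine treatment, no cornea free of dry eye is compared here, and the labels give neither the strain, the sex and the age nor the dose and route of either drug. The labels do not state that the pools came from separate animals, so p-values measure the spread between these samples, which may in part be technical.

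The corneal epithelium stands on a basement membrane and is riveted to it by hemidesmosomes. In these, the integrin made of the Itga6 and Itgb4 products binds laminin outside the cell and is tied inside it to keratin filaments by plectin (Plec) and the epithelial form of dystonin (Dst). Laminins are trimers of an α, a β and a γ chain, and the chains encoded by Lama3 and Lamb3 belong to the chief ligand of hemidesmosomes. Other integrins, mostly built on the Itgb1 product, serve spreading and migration, and integrins built on the Itgav product bind matrix such as fibronectin and can release active TGF-β.

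The labelled tissue was borne out by its markers, with the 7 corneal epithelium markers summing to 34599 to 36796 FPKM in ICI and 34554 to 39408 in Scop (FPKM, a fragment count scaled to gene length and library depth). Libraries held 34354346 to 39885822 recovered fragments. Scop replicate 3 stood apart in its stromal transcripts. The 7 keratocyte markers, among them Kera, Lum and Dcn, summed to 1665 to 2243 FPKM in ICI and 646 to 1965 FPKM in Scop, with the 646 in Scop replicate 3, where Ptgds was listed at 0. The 7 corneal endothelium markers, among them Slc4a11 and Col8a2, summed to 271 to 594 FPKM in ICI and 222 to 401 FPKM in Scop, and were highest in ICI replicate 1 (594) and Scop replicate 1 (401). The 4 conjunctiva and goblet cell markers found summed to 1857 FPKM in Scop replicate 3 and to 1114 to 1282 FPKM in the other 7 libraries. In pooled whole corneas, fewer cells of a layer and less RNA per cell cannot be told apart.

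The adhesion genes spanned more than 3 orders of magnitude in level. Averaged over the 8 libraries, 7 genes exceeded 30 FPKM: Itga6 (78.2), Cd151 (69.7), Itgb1 (57.8), Itgb4 (45.0), Itgb5 (38.4), Itga3 (35.1) and Plec (32.7). A further 11 lay between 5 and 30 FPKM, among them Itgav, Lama3, Lama5, Lamb1, Lamb2, Lamb3, Lamc1, Agrn, Dst and Nid1. Another 8 lay between 0.5 and 5 FPKM (Itga2, Itga2b, Itga5, Itga11, Itgb6, Itgb7, Lama2 and Hspg2). The remaining 13 averaged at most 0.431 FPKM and were not tested. Neighbours in this order could overlap, as Itgb5 covered 35.3 to 40.4 FPKM and Itga3 33.2 to 38.0. The order also rests on the gene length the authors divided by, which by the recovered fragments was between 0.323 and 2.07 times the exon length of GENCODE M21 and within 0.1 of 1 for 21 of the 39. That ratio was 0.674 for Itga6 and 0.737 for Cd151 but 1.03 for Itgb1, so the order of these 3 genes depends on the length used.

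**Figure D1:**
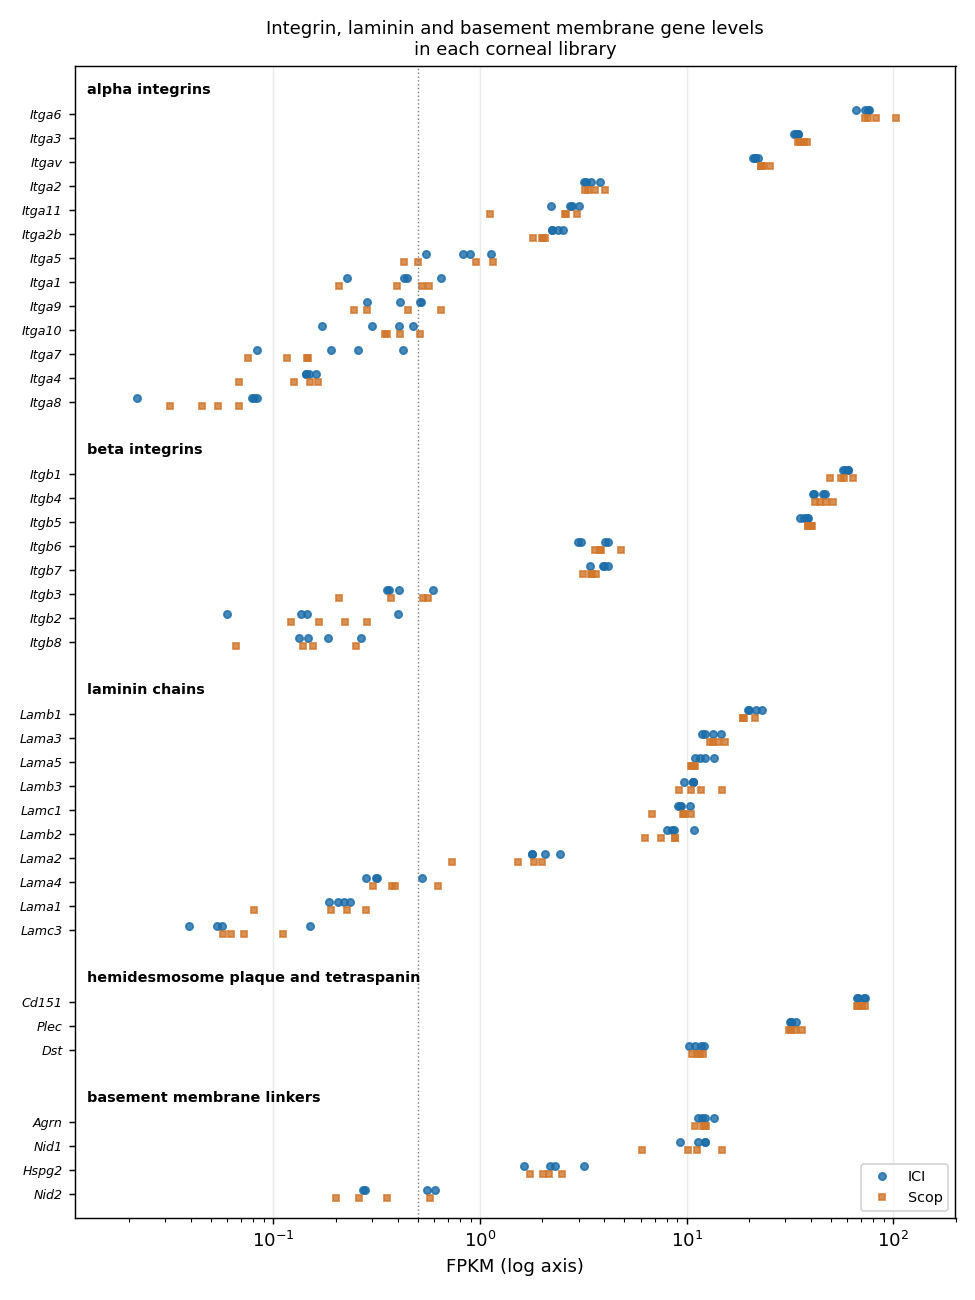
FPKM of 38 of the adhesion genes (rows, grouped by role) in each library on a log axis, with ICI as circles above Scop as squares and 4 points per group; the dotted line marks the 0.5 FPKM minimum used on gene means. Itga6 and Cd151 lie highest and Itga8 and Lamc3 lowest, and the ICI and Scop points are apart in Itgav and Itga2b.

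The comparison of ICI with Scop asks whether the adhesion apparatus of the dry eye cornea is transcribed differently when the β2-adrenergic receptor is blocked. Of the 26 genes that reached a mean of 0.5 FPKM, 0 passed limma's test at an adjusted p under 0.05, which was also the share over all 12100 genes tested (0%). At an unadjusted p under 0.05 there were 3 of 26, or 11.5%, against 1455 of all genes tested (12%). In the higher direction these were 2, Itga2b and Lama5 (all genes 4.56%), and in the lower direction 1, Itgav (all genes 7.46%). After quantile normalisation the genes at an unadjusted p under 0.05 split into 728 higher and 717 lower over all genes, against 552 and 903 as deposited. Limma-voom on the recovered fragments counted 0 adhesion genes after adjustment and 2 at the unadjusted threshold, Itgav and Lama5. Groups did not overlap for 2 of the 26 genes (7.69%), against 6.98% of all genes tested. These were 1 higher in ICI (all genes 2.63%) and 1 lower in ICI (all genes 4.36%). The shares among the adhesion genes were thus near those of all genes. Without ICI replicate 1, ICI replicate 3 or Scop replicate 4 the count at the unadjusted threshold was 1, which was Lama5, Itga2b and Itgav in that order. The median log2 fold change was 0.02 over the 26 genes and -0.02 over all genes, on the scale of log2(FPKM + 1), which understates the change of low genes.

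**Figure D2:**
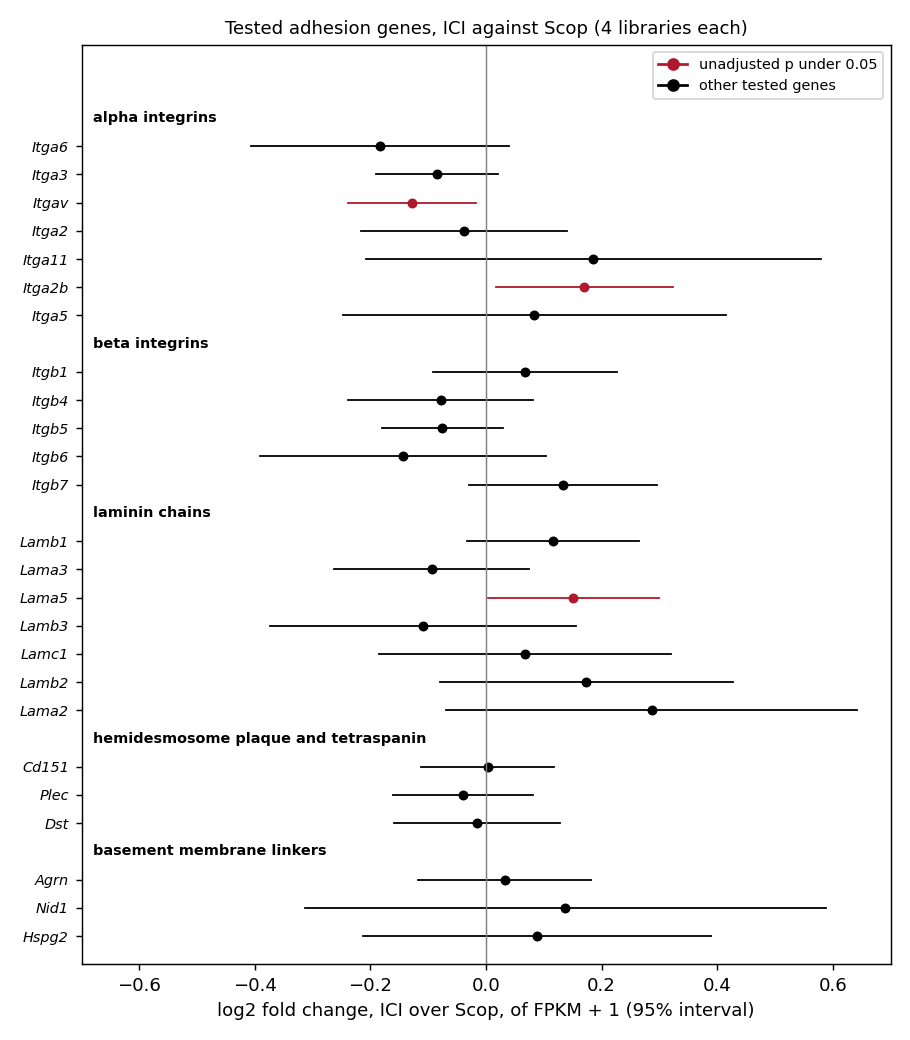
Log2 fold change of FPKM + 1, ICI over Scop, with limma's 95% interval for 25 tested adhesion genes, grouped by role and ordered by level. The points lie between -0.18 (Itga6) and 0.29 (Lama2), and the intervals of Itgav, Itga2b and Lama5 leave out 0 before adjustment.

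Promoter windows are shown for the 3 genes with an unadjusted p under 0.05. Each runs from 250 bases before to 50 bases after a transcript start of the RefSeq annotation (GRCm38.p6, the build of mm10), on the gene's strand. Capitals mark GC boxes, which Sp1-family factors bind (GGGCGG, or CCGCCC on the other strand).
Lama5, chr2:180225810-180226109, minus strand: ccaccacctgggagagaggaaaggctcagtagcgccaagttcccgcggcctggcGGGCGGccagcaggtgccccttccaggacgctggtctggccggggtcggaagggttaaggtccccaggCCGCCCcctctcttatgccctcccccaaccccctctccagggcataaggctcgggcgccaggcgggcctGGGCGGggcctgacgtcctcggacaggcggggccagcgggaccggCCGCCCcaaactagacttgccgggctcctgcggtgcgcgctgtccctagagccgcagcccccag
Itgav, chr2:83724147-83724446, plus strand: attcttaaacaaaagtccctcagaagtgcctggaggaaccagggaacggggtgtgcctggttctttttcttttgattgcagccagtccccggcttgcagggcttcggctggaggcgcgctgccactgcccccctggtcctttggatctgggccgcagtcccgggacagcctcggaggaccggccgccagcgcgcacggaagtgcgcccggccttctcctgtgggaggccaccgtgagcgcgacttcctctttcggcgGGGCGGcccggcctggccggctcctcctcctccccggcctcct
Itga2b, chr11:102469834-102470133, minus strand: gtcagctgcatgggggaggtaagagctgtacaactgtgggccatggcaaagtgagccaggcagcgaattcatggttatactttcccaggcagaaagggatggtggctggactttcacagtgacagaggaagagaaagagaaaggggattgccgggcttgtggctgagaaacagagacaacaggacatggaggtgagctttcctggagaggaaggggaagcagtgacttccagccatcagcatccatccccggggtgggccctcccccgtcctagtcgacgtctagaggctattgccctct
The Lama5 window held 4 GC boxes, the Itgav window 1 and the Itga2b window 0. The Itgav window lies inside the gene, which starts at 83722303, so it belongs to a later transcript start. Both strands were searched, and 35.7% of all 32851 promoter windows held at least 1 GC box. Of the 32 windows found for 26 of the adhesion genes, 17 held a GC box. The AP-1 motif TGANTCA was in 2 of the 32 windows (Itga3 and Itga9; 7.81% of all windows), and the GATA motif AGATAA in 0 (11.2% of all windows). No window printed held an AP-1 or GATA match, so the marked GC boxes overlap neither.

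Among the integrin α genes, Itgav and Itga2b separated the groups. Itgav (chromosome 2, 83722303 to 83806917) encodes the α chain that pairs with the products of Itgb1, Itgb3, Itgb5, Itgb6 and Itgb8. It was at 21.5, 21.4, 21.0 and 22.1 FPKM in ICI replicates 1 to 4. In the Scop replicates it was at 23.5, 22.8, 25.2 and 22.9 FPKM. Every ICI value lay below every Scop value, with means of 21.5 ± 0.462 and 23.6 ± 1.10 FPKM (SD, n = 4 in each group, as in all means below). Its log2 fold change was -0.13 (SE 0.05; limma's unadjusted p = 0.0274, adjusted p = 0.352), and without Scop replicate 3, its highest library, -0.10.

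Itga2b, the α chain of the platelet fibrinogen receptor (chromosome 11, 102453297 to 102469883), was at 2.53, 2.23, 2.22 and 2.39 FPKM in ICI and at 2.01, 1.81, 2.07 and 1.99 FPKM in Scop. Here every ICI value lay above every Scop value (log2 fold change 0.17, SE 0.07; limma's adjusted p = 0.367). The gene rested on 301 to 342 fragments in ICI and 245 to 277 in Scop. Its partner gene Itgb3 and the other 3 platelet markers found overlapped between the groups. Itgb3 averaged 0.429 ± 0.111 FPKM in ICI and 0.417 ± 0.162 FPKM in Scop. The platelet factor gene Pf4 averaged 0.629 ± 0.373 FPKM in ICI and 1.17 ± 0.732 FPKM in Scop. Gp1bb, of the von Willebrand factor receptor, averaged 2.72 ± 0.197 FPKM in ICI and 2.39 ± 0.441 FPKM in Scop. The 4 platelet markers found in the table, Itga2b included, summed to 5.78 to 6.40 FPKM in ICI and 4.66 to 6.63 FPKM in Scop, and their part in the result was not tested.

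Itga6, the α chain of the hemidesmosomal integrin (chromosome 2, 71786886 to 71858427), was at 66.3, 75.6, 76.4 and 73.3 FPKM in ICI and at 75.4, 73.1, 103 and 82.3 FPKM in Scop. The groups overlapped, and Scop replicate 3 held the highest value. Its log2 fold change of -0.18 (95% interval -0.41 to 0.04; limma's adjusted p = 0.504) was -0.08 without that library. Itga3, the α chain of a laminin receptor outside hemidesmosomes, averaged 34.1 ± 0.643 FPKM in ICI, against 36.2 ± 1.60 FPKM in Scop, a log2 fold change of -0.09 (95% interval -0.19 to 0.02). Both groups met at 34.4 to 34.6 FPKM.

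The collagen receptor chains differed in where they were low. Itga2, which epithelia carry, lay between 3.20 and 3.81 FPKM in ICI and between 3.21 and 4.04 FPKM in Scop. Itga11, a collagen receptor chain of fibroblasts, was at 3.02, 2.71, 2.78 and 2.22 FPKM in ICI and at 2.62, 2.57, 1.12 and 2.96 FPKM in Scop, so that Scop replicate 3 lay far below the other 7 libraries. Its log2 fold change of 0.19 turned to -0.02 without that library. Itga5, the fibronectin receptor chain, averaged 0.849 ± 0.236 FPKM in ICI and 0.760 ± 0.352 FPKM in Scop. The other 6 α genes, Itga1, Itga4, Itga7, Itga8, Itga9 and Itga10, had no library above 0.650 FPKM, and their groups overlapped.

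No integrin β gene reached an unadjusted p of 0.05. Itgb4, whose product has the long cytoplasmic tail that binds plectin (chromosome 11, 115974725 to 116008412), was at 41.3, 46.9, 45.8 and 40.8 FPKM in ICI and at 44.3, 42.0, 47.4 and 51.2 FPKM in Scop. The groups overlapped over most of their range, and the log2 fold change was -0.08 (95% interval -0.24 to 0.08; limma's adjusted p = 0.691). Itgb1, the common β chain (chromosome 8, 128685654 to 128733579), was at 59.1 ± 1.65 FPKM in ICI and 56.5 ± 6.02 FPKM in Scop. Its lowest library was Scop replicate 3 at 49.1 FPKM, where Itga6 had its highest value. The level ratio of Itga6 to Itgb4 was 1.60 to 1.80 in ICI and 1.61 to 2.18 in Scop, and outside Scop replicate 3 no library exceeded 1.80.

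The β partners of Itgav other than Itgb1 were at different levels. Itgb5 averaged 37.4 ± 1.51 FPKM in ICI, against 39.4 ± 0.967 FPKM in Scop (log2 fold change -0.08, 95% interval -0.18 to 0.03). Itgb6, an epithelial chain whose integrin activates TGF-β, lay at 3.55 ± 0.622 FPKM in ICI and 4.01 ± 0.541 FPKM in Scop, and was highest in Scop replicate 3 (4.81). The highest library of Itgb3 had 0.592 FPKM and that of Itgb8 0.267 FPKM. Itgav, Itgb5 and Itgb6 had negative log2 fold changes, where 44.6% of all genes tested had positive ones. Of the 3, Itgav alone had an interval clear of 0. Itgb1, also a partner of Itgav, had a positive one (0.07, 95% interval -0.09 to 0.23).

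Of the β chains of leukocyte integrins, Itgb7 was the higher. It averaged 3.87 ± 0.329 FPKM in ICI and 3.44 ± 0.193 FPKM in Scop (log2 fold change 0.13, 95% interval -0.03 to 0.30; limma's adjusted p = 0.503). Its known α partners Itga4 and Itgae reached at most 0.165 and 0.125 FPKM in any library. The length behind the Itgb7 FPKM was 2.07 times its GENCODE M21 exon length. With that exon length its level would be higher, so the size of its distance to these genes depends on the length used. Itgb2, the β chain common to many leukocyte integrins, averaged 0.186 ± 0.149 FPKM in ICI and 0.199 ± 0.0710 FPKM in Scop, and rested on 7 to 45 fragments a library in ICI and 13 to 34 in Scop. The pan-leukocyte marker Ptprc did not exceed 0.255 FPKM.

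The laminin genes held 1 of the 3 smallest p-values, in Lama5. Lama5, the α chain of the laminin found beneath most epithelia (chromosome 2, 180176373 to 180225904), was at 10.9, 13.5, 12.2 and 11.6 FPKM in ICI and at 10.7, 10.8, 11.0 and 10.5 FPKM in Scop. The groups overlapped only through ICI replicate 1, which lay below Scop replicate 3. The log2 fold change was 0.15 (SE 0.07; limma's unadjusted p = 0.0460, adjusted p = 0.403), and 0.10 without ICI replicate 2, its highest library. The chains that can join it, Lamb1 and Lamc1, were at 21.1 ± 1.58 and 9.53 ± 0.618 FPKM in ICI, and at 19.4 ± 1.26 and 9.15 ± 1.64 FPKM in Scop. Lamb1 had a log2 fold change of 0.12 (95% interval -0.03 to 0.26) and Lamc1 of 0.07 (-0.19 to 0.32), which turned to -0.06 without Scop replicate 3, its lowest library.

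Lama3 and Lamb3, chains of the hemidesmosomal laminin, had negative log2 fold changes with intervals that include 0. Lama3 (chromosome 18, 12333417 to 12583013) was at 11.9, 14.6, 13.5 and 12.2 FPKM in ICI and at 13.0, 13.4, 15.3 and 14.1 FPKM in Scop (log2 fold change -0.09, 95% interval -0.26 to 0.07). Lamb3 (chromosome 1, 193294353 to 193343878) was at 9.76, 10.7, 10.8 and 10.8 FPKM in ICI and at 9.16, 10.5, 14.9 and 11.8 FPKM in Scop. For Lamb3 the 14.9 FPKM of Scop replicate 3 was the highest value by far, and its log2 fold change of -0.11 turned to 0.01 without that library.

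Although Lama5 and Lama3 each overlapped between the groups, their ratio within a library did not. The level of Lama3 over that of Lama5 was 1.09, 1.08, 1.10 and 1.05 in ICI and 1.22, 1.24, 1.39 and 1.35 in Scop, with means of 1.08 ± 0.0220 and 1.30 ± 0.0828. A ratio within a library is free of scaling between libraries. It was picked after the values had been seen and carries no test. It is 1 of 2 ratios without overlap among the 28 pairs of tested laminin genes (7.14%), and 23 of the 325 pairs of all tested adhesion genes had none (7.08%). Of the 25 ratios of Lama5 to another tested adhesion gene, 8 had no overlap (32%), so the separation was not particular to Lama3. As a share of the summed FPKM of the 5 laminin α genes, Lama5 made up 43.5% ± 1.08 in ICI and 40.0% ± 0.896 in Scop, and Lama3 47.1% ± 0.974 in ICI and 52.0% ± 2.81 in Scop.

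**Figure D3:**
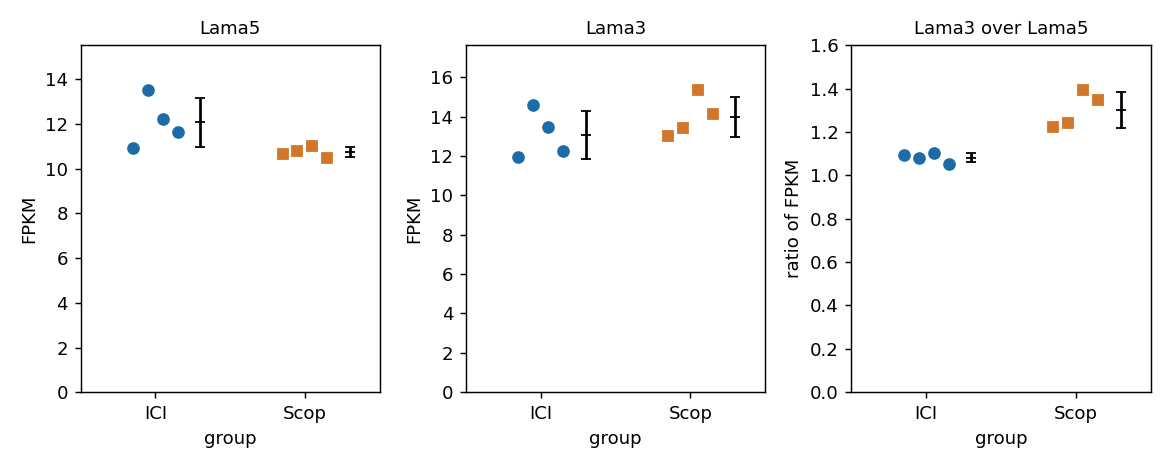
Levels of Lama5 and Lama3 (FPKM) and their ratio in each library, ICI as circles at left and Scop as squares at right; bars give the mean ± SD of 4 libraries, and all axes start at 0. The ratio lies at 1.05 to 1.10 in ICI and at 1.22 to 1.39 in Scop, while each gene alone overlaps.

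The remaining laminin genes are mostly those of other layers. Lama2, an α chain of muscle and other mesenchymal tissues, was at 2.43, 2.07, 1.79 and 1.78 FPKM in ICI and at 1.99, 1.53, 0.736 and 1.82 FPKM in Scop. It had the largest log2 fold change of the tested adhesion genes (0.29, 95% interval -0.07 to 0.64; limma's adjusted p = 0.512), which was 0.12 without Scop replicate 3. Lamb2 averaged 8.99 ± 1.26 FPKM in ICI, against 7.87 ± 1.20 FPKM in Scop, highest in ICI replicate 1 (10.8) and lowest in Scop replicate 3 (6.31). The highest library had 0.281 FPKM of Lama1, 0.627 FPKM of Lama4 and 0.150 FPKM of Lamc3, and these genes were not tested.

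The genes of the plaque and its tetraspanin had small log2 fold changes with narrow intervals. Plec was at 31.5, 33.7, 32.0 and 31.9 FPKM in ICI and at 32.0, 31.3, 36.0 and 33.6 FPKM in Scop, a log2 fold change of -0.04 (95% interval -0.16 to 0.08). Dst had -0.02 (-0.16 to 0.13), and the counts of a whole gene do not tell its epithelial form from its neuronal and muscle forms. Cd151, the tetraspanin that sits beside laminin-binding integrins, had a log2 fold change of 0.0028 (-0.11 to 0.12), at 69.8 ± 3.36 FPKM in ICI and 69.7 ± 3.02 FPKM in Scop. Over the 3 genes these intervals reach down to -0.16 and up to 0.13 on the log2 scale.

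Of the basement membrane linkers, Nid1, which bridges laminin and type IV collagen (chromosome 13, 13437602 to 13512275), was the most variable. It was at 12.2, 12.3, 11.3 and 9.31 FPKM in ICI and at 14.8, 10.1, 6.12 and 11.2 FPKM in Scop, with both the highest and the lowest library in Scop. Its log2 fold change was 0.14 (95% interval -0.31 to 0.59), and -0.08 without Scop replicate 3. Agrn, the heparan sulfate proteoglycan agrin, was at 12.2 ± 0.969 FPKM in ICI and 11.9 ± 0.654 FPKM in Scop (log2 fold change 0.03, 95% interval -0.12 to 0.18). Hspg2, or perlecan, was at 2.33 ± 0.651 FPKM in ICI and 2.10 ± 0.312 FPKM in Scop, highest in ICI replicate 1 (3.20). Nid2 did not exceed 0.603 FPKM.

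Scop replicate 3 held extremes of the adhesion genes in both directions. In that library 8 of the 26 tested genes had their highest value (30.8%, against 15.01% of all genes tested) and 7 their lowest (26.9%, against 24.9%). Highest there were Itga2, Itga3, Itga6, Itgav, Itgb6, Lama3, Lamb3 and Plec. Lowest were Itga5, Itga11, Itgb1, Lama2, Lamb2, Lamc1 and Nid1. On the log2(FPKM + 1) scale the distance of Scop replicate 3 to the median of the other 7 libraries ran from -0.81 in Itga11, -0.79 in Nid1 and -0.70 in Lama2 to 0.44 in Lamb3 and 0.45 in Itga6. In the same library all 6 tested keratocyte markers and 6 of the 7 corneal endothelium markers had their lowest value, and 4 of the 7 epithelium markers their highest. The part of these marker differences in the adhesion genes was not tested. ICI replicate 1, the library with the highest endothelium markers, was highest in 5 of the 26 genes (19.2%, against 11.8% of all genes tested). These were Hspg2, Itga11, Itga2b, Lama2 and Lamb2. That library was lowest in 5 (19.2%, against 11.0%), among them Dst, Itga3, Itga6 and Lama3.

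**Figure D4:**
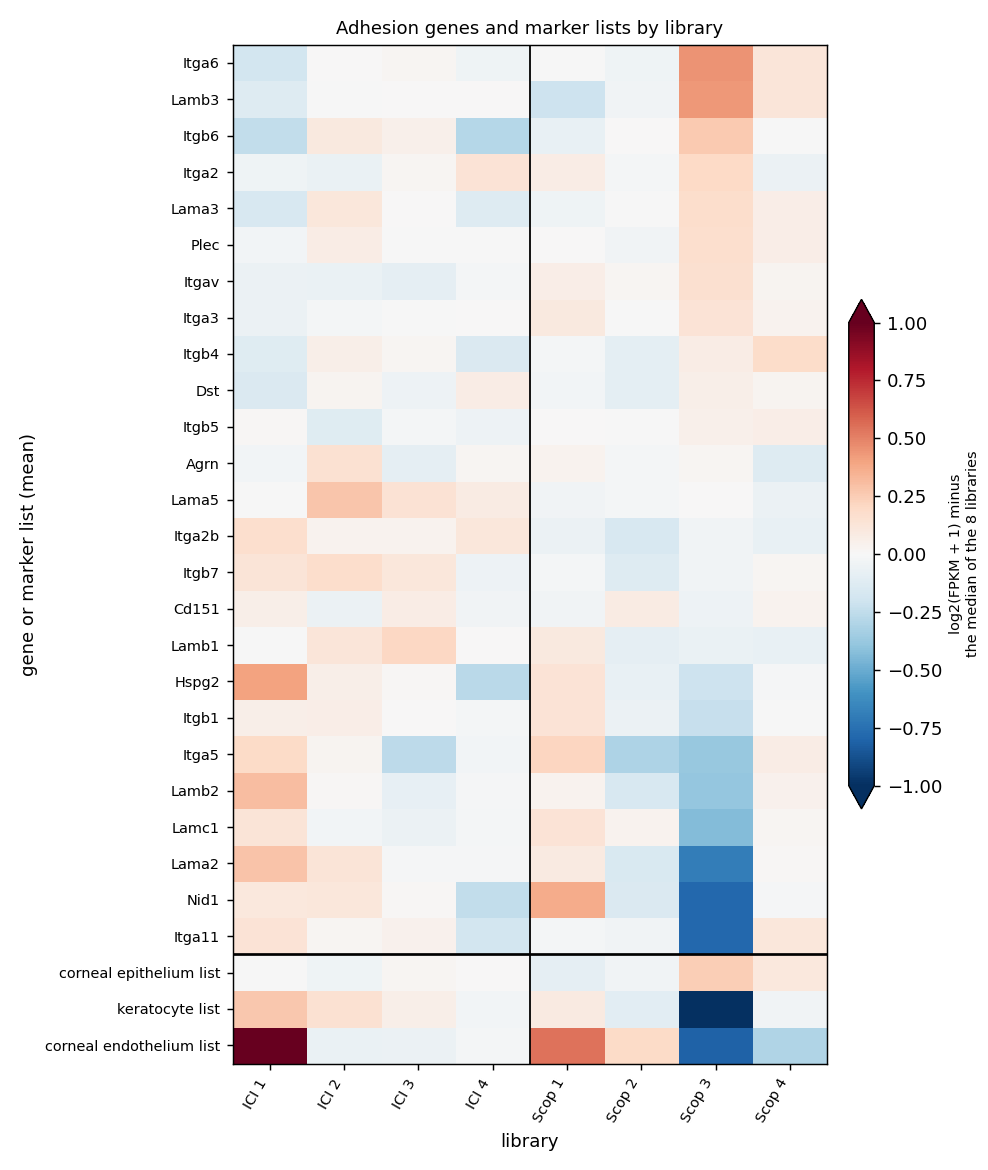
Log2(FPKM + 1) of 25 tested adhesion genes in each library minus the median of the 8 libraries, sorted by Scop replicate 3, with ICI libraries left of Scop; below the line are the means of 3 marker lists. Scop replicate 3 runs from Itga6, furthest above that median, to Itga11, furthest below it, and the keratocyte list is lowest in the same library.

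Genes that work with the adhesion genes were read from lists of 11 to 23 genes, and 0 passed limma's adjusted test in each of them. Of 10 tested genes of hemidesmosomes and anchoring, 0 had an unadjusted p under 0.05 (12% of all genes tested). Log2 fold changes were positive in 3 and negative in 7 (median -0.05), against 44.6% positive over all genes tested. Col17a1, the transmembrane collagen of hemidesmosomes, was at 389 ± 33.0 FPKM in ICI and 396 ± 20.9 FPKM in Scop, above every gene of the 39. Cd9, Fermt1 and Cd81 had the smallest p of that list (log2 fold changes 0.09, -0.11 and 0.22).

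Of 21 tested genes of integrin activation and focal adhesions, 14 had negative and 7 positive values (median -0.05), against 44.6% positive over all genes. An unadjusted p under 0.05 was found in 1 (4.76%, against 12% of all genes tested). This was Bcar1, a docking protein of focal adhesions, at 16.6 ± 0.895 FPKM in ICI and 18.6 ± 1.51 FPKM in Scop without overlap (limma's adjusted p = 0.389). Rap1b and Sharpin, which act on integrin activation, had -0.09 (SE 0.05) and -0.13 (SE 0.07). Of 18 tested genes of the basement membrane outside the 39, 14 had positive values (median 0.14), against 44.6% of all genes tested. At an unadjusted p under 0.05 there was 1 (5.56%, against 12%), Fbln1, a fibulin, with -0.16 (SE 0.07). Ntn4 and Tinagl1 had 0.30 (SE 0.17) and -0.16 (SE 0.11). In 13 of these 18 genes Scop replicate 3 was the lowest library, as it was in 24.9% of all genes tested. Col4a1 to Col4a6, Fbln2, Ltbp3, Npnt, Pxdn, Smoc1 and Smoc2 were highest in ICI replicate 1, as were 11.8% of all genes tested. The list summed to 336 FPKM in ICI replicate 1, 294 in Scop replicate 1 and 217 in Scop replicate 3. In the remaining libraries it summed to 257 to 277 FPKM. The positive values thus rest in part on single libraries.

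Of 15 tested integrin ligands, 3 had an unadjusted p under 0.05 (20%, against 12% of all genes tested), and 2 had no overlap (13.3%, against 6.98%). Fn1 encodes fibronectin, the ligand of the receptors with Itga5 and Itgav, and lay at 43.5 ± 2.84 FPKM in ICI and 32.5 ± 4.79 FPKM in Scop, without overlap (log2 fold change 0.42, SE 0.10; limma's adjusted p = 0.181). Spp1, which encodes osteopontin, lay the other way, at 7.92 ± 0.491 FPKM in ICI and 11.2 ± 2.25 FPKM in Scop, also without overlap (-0.43, SE 0.12; adjusted p = 0.236). Ccn1, a matricellular ligand, had 0.43 (SE 0.14; adjusted p = 0.302) with overlap. The median over the 15 genes was 0.06. Scop replicate 3 was the lowest library in 9 of the 15, as it was in 24.9% of all genes tested. Fn1 and Ccn1 were lowest there (27.0 and 33.4 FPKM) and highest in ICI replicate 1 (46.9 and 67.5 FPKM). Their values without these libraries are not given here.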

How the data were processed

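RNA of 8 pooled corneal samples was sequenced. Per the labels' protocols, RNA came from a Qiagen kit, libraries from a Vazyme kit, and reads from an Illumina NovaSeq. The authors deposited 1 table of FPKM values, and fastp, HISAT2, HTSeq and the build mm10 are named in the submitters' processing notes. No version, annotation or strandedness is given in the sources used here, and reads of the 15 adhesion genes that share exon bases with another gene in GENCODE M21 may be split or added. Columns were matched by sample title.

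Limma 3.58.1 (R 4.3.3; lmFit, eBayes with trend) was fitted to log2(FPKM + 1) of the 12100 genes averaging 0.5 FPKM or more, two-sided, with Benjamini-Hochberg adjustment over all of them and a threshold of 0.05. The fit was tested on simulated data. Whole fragments were recovered from ratios of FPKM between libraries for 99.8% of genes (57 were not), within a relative tolerance of 5e-13 and taken as whole within 0.01. No pair of libraries agreed within sampling noise (lowest chi-square per degree of freedom 13.1). By this measure Scop replicate 4 lay nearer to the ICI libraries (17.8 to 28.8) than to the other Scop libraries (56.3 to 72.7). The reason was not tested.

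The genes, lists and tests were chosen with earlier results of these data known. Full values are given for 15 genes of stratified epithelial adhesion and up to 3 genes per role with the smallest p, and up to 3 genes of each companion list. Itga2, Itga5, Itga11, Lamb2, Itgb3 and Col17a1 were described beyond that rule, and 1 gene is not reported here, though it is in the fit and the counts. Alternatives were other pseudocounts, filters, scalings, variance models, limma-voom, a block on the replicate number, and fits without each library in turn. Promoter windows and gene coordinates are from RefSeq (GRCm38.p6, 1-based).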

Additional observations from a re-analysis of the deposited data

Results flagged for a closer look

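Within a group of 4 libraries, 1 library stood far from the other 3 in 5 of the 78 combinations of adhesion gene and group, where chance gives about 1 in 20. Lamb3 was at 9.76 FPKM in ICI replicate 1, against 10.7 to 10.8 in the other ICI libraries. Lama4, an α chain of blood vessel laminin, was at 0.525 FPKM in ICI replicate 1, against 0.281 to 0.316 in the others. Lamc3, a minor γ chain, was at 0.150 FPKM in ICI replicate 1, against 0.0389 to 0.0563. Itga8, an α chain of mesenchymal cells, was at 0.0218 FPKM in ICI replicate 3 (11 fragments), against 0.0788 to 0.0833. Lamb1 was at 21.3 FPKM in Scop replicate 1, against 18.7 to 18.9 in the other Scop libraries.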

How the results depend on the processing

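Over 17 alternatives to the fit the adhesion genes gave 0 calls after adjustment, and all genes gave 0 except with 1 library left out (0 to 6), with 1 call without Scop replicate 1, 1 without Scop replicate 3 and 6 without Scop replicate 4. At the unadjusted threshold the adhesion genes numbered 1 to 4 with 1 library left out. The median log2 fold change of the tested adhesion genes lay between -0.0056 and 0.030 with 1 library left out. Of 21 named genes, 14 kept their sign in every alternative run. Dst had 0.0073 after quantile normalisation. With 1 library left out the log2 fold change ran from -0.015 to 0.067 in Agrn, from -0.019 to 0.028 in Cd151, from -0.047 to 0.025 in Dst, from -0.030 to 0.20 in Hspg2, from -0.21 to 0.010 in Lamb3, from -0.056 to 0.13 in Lamc1 and from -0.077 to 0.31 in Nid1. These signs turned without Scop replicate 3 in Cd151, Dst, Lamb3, Lamc1 and Nid1, without ICI replicate 1 in Cd151, Dst and Hspg2, without Scop replicate 4 or ICI replicate 2 in Agrn, and without ICI replicate 3 or Scop replicate 1 in Cd151. The cause was not tested. With the replicate number as a block, 0 genes passed after adjustment, and 1512 genes passed at the unadjusted threshold, among them 2 adhesion genes, which were Itga6 and Lama2. Under that block Itgav, Itga2b and Lama5 had unadjusted limma p of 0.0637, 0.0553 and 0.0552. Same-numbered libraries correlated in their deviations from the group means by -0.0093 to 0.29, above 0.1 in 2 of 4 pairs, and ICI replicates 2 and 4 correlated best with another number, so the numbers were not taken to pair the samples. Itgav had an unadjusted p of 0.0817 with median-ratio scaling and 0.108 with quantile normalisation. Depth limits the low genes most, Itgb2 having 7 fragments in ICI replicate 2.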

Other observations

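Fermt3 and Itgam, genes known from blood cells, were at 23.0 ± 1.32 and 26.6 ± 1.81 FPKM in ICI and at 23.3 ± 1.61 and 24.5 ± 2.60 FPKM in Scop. Fermt3 encodes an activator of integrins, and Itgam the α partner of the Itgb2 product. Their levels stood beside an Itgb2 of 0.186 ± 0.149 FPKM in ICI and 0.199 ± 0.0710 FPKM in Scop. Of the other leukocyte α chains, Itgal had at most 0.0515 FPKM and Itgax at most 0.0640 FPKM in a library. The leukocyte list, of which 6 of 7 genes were found, summed to 34.3 to 42.5 FPKM in ICI and 32.7 to 40.5 FPKM in Scop, most of it Itgam. In GENCODE M21 the gene model Gm49368 shares 3450 of the 5024 exon bases of Itgam on the same strand, so the Itgam value is uncertain. The length behind the Fermt3 FPKM was 0.450 times its GENCODE M21 exon length, against 0.979 for Itgb2. With the GENCODE M21 length the level of Fermt3 would be lower, though still above that of Itgb2. The size of the gap thus depends on the length used.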
